A study of Mus musculus with 192 samples.

Results

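The genes of MHC class I antigen presentation described here are 8 of the 23481 gene symbols in the deposited count table, chosen by name and followed over all 64 groups of the study. They are the heavy chains H2-K1, H2-D1 and H2-T23, the light chain B2m, the peptide transporter genes Tap1 and Tap2, the loading factor Tapbp and the regulator Nlrc5. All 8 passed the filter on low counts, which left 4720 genes in the tests.

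MHC class I molecules carry peptides from proteins made inside the cell to its surface, where CD8 T cells read them. The proteasome cuts proteins into peptides, the transporter formed by Tap1 and Tap2 moves these into the endoplasmic reticulum, and Tapbp (tapasin) holds the empty class I molecule at the transporter until a peptide is bound. Dendritic cells use this route to prime CD8 T cells, and interferons and NF-kB signalling are known inducers of its genes, with Nlrc5 as a transactivator of class I promoters.

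The cells were dendritic cells grown with GM-CSF from bone marrow of female C57BL/6J mice aged 6 to 8 weeks, plated at 100000 cells a well and treated for 6 h. The 64 groups were an untreated control (Ctrl), 7 pattern recognition receptor ligands alone, their 21 pairs and their 35 triplets, each with 3 libraries. The ligands are named PAM, LPS, HMW, Zymosan (depleted zymosan in the labels), SeV, cGAMP (3',3'-cGAMP) and CpGB. Their doses are not given in the sources used here. LPS is a bacterial cell wall lipid, zymosan a yeast cell wall preparation and cGAMP a cyclic dinucleotide. Every group shares the strain, the sex and the culture in GM-CSF, a cytokine that is itself present in the controls. The labels do not say whether the 3 libraries of a group came from separate mice or cultures, so p-values measure only the spread between these samples, which may be technical.

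In the mouse genome (build GRCm38, mm10; GENCODE M21 gene spans) 6 of the 8 genes lie in the MHC region of chromosome 17. Tapbp spans chr17:33915899-33929292 (+ strand), H2-K1 chr17:33996017-34000347 (−), Tap1 chr17:34187553-34197225 (+), Tap2 chr17:34203527-34216321 (+), H2-D1 chr17:35262730-35267499 (+) and H2-T23 chr17:36029773-36032855 (−). B2m lies at chr2:122147686-122153083 (+) and Nlrc5 at chr8:94434356-94527272 (+).

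Class I relatives resemble one another, so some reads cannot be placed on 1 gene. Of the 50-base stretches in the annotated transcript, 28.8% of those of H2-T23, 14.3% of those of H2-D1 and 8.79% of those of H2-K1 also occurred in another gene's transcripts. In the last 500 bases of the transcript the shares were 38.1% for H2-T23, 9.53% for H2-D1 and 0.443% for H2-K1. H2-K1 and H2-D1 shared 109 of these stretches with each other. How reads matching several genes were counted is not given in the sources used here, so levels of H2-T23 and, less so, of H2-D1 and H2-K1 may include reads of relatives. B2m and Nlrc5 shared none with another gene, and Tap1, Tap2 and Tapbp shared at most 2%. The span of B2m is covered by Patl2 on the opposite strand over 5398 bases, that of H2-T23 by A930015D03Rik over 3083 bases, and Tapbp overlaps Zbtb22 on its own strand by 3422 bases. Tap1 overlaps the proteasome gene Psmb9 on the opposite strand by 212 bases. Tap2 overlaps 2 noncoding genes and Nlrc5 1 on the opposite strand. Whether the counting used strand is not given, so reads of such partners cannot be told apart from the members' own.

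The stretches just before the start sites are shown for a heavy chain and for the light chain, because class I promoters are known for closely spaced elements and these are genes whose products pair on the cell surface. Each is the 250 bases upstream of a RefSeq start site (GRCm38.p6), written 5′ to 3′ on the gene's strand, H2-K1 from chr17:34000348-34000597 (− strand) and B2m from chr2:122147437-122147686 (+ strand). Capitals mark matches to the NF-kB consensus (an 11-base run of overlapping matches in H2-K1), to GAANNGAAA or a longer form with GAAA on both sides of the NN, letters of interferon-stimulated response elements, and to TGACG, the core of cAMP response elements.
H2-K1: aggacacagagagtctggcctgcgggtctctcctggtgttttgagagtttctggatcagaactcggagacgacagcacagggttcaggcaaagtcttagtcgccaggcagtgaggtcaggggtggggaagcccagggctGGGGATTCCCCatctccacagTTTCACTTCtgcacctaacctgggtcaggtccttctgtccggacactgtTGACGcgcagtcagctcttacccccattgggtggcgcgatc
B2m: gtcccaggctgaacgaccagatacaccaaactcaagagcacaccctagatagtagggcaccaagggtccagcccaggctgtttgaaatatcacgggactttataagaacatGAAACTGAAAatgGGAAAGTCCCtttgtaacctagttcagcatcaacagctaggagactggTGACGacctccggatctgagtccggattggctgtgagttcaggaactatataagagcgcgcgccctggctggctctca

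Both stretches hold all 3 kinds of match, with TGACG nearest to the start site. In H2-K1 the NF-kB consensus begins 111 bases before the start site, TTTCACTTC (GAANNGAAA on the opposite strand) at 90 and TGACG at 41. From another RefSeq start site of H2-K1 the same matches begin at 125, 104 and 55 bases. In B2m GAAACTGAAA begins 139 bases before the start site, the NF-kB consensus at 126 and TGACG at 78. Promoter sequences were matched for 6 of the 8 members. H2-D1 had the H2-K1 set, with TTTCACTTC 150 bases before its RefSeq start site, but its whole window lies in an exon of the gene in GENCODE. H2-T23 had TTTCTCTTTC (the longer form on the opposite strand) at 124 bases, within the 154 bases of its window that lie in its own exon. Tap1 had TGACG at 86, and its whole window lies in an exon of Psmb9. Tapbp had none of the motifs searched, and 146 bases of its window lie in its own UTR. Of 32851 RefSeq windows of the same length, searched on both strands, 2.98% held the longer form, 6.31% GAANNGAAA, 7.25% the NF-kB consensus, 17.8% TGACG and 7.02% TTCNNNGAA, which no member held. The longer form need not hold the shorter one, and the windows of B2m and H2-T23 do not. The motifs were chosen after the sequences were seen, and a match is a description of letters, not evidence of a bound site.

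Libraries held 46564 to 610234 UMI counts (median 171616.5), and the 3 Ctrl libraries, the reference of every comparison with Ctrl, were shallow at 61823 to 89530. The summed Ctrl counts of the members were 1298 for B2m, 438 for H2-D1, 432 for H2-K1, 127 for Tapbp, 40 for H2-T23, 18 for Nlrc5, 17 for Tap2 and 15 for Tap1, which sets the error of each fold change. Expression profiles put 9 libraries apart from the other 2 of their group (a rule set after the data were seen): replicate 1 of HMW + SeV + CpGB, HMW + SeV + cGAMP, HMW + cGAMP + CpGB, PAM + HMW + Zymosan, PAM + LPS and Zymosan + SeV + cGAMP, replicate 2 of Zymosan + SeV, and replicate 3 of LPS + SeV + CpGB and PAM + HMW + SeV. The last, the deepest library, correlated with replicate 3 of PAM + LPS at r = 0.720 and with its own group at 0.395 at most, over 2562 genes centred on their mean. Replicate 1 of HMW + SeV + CpGB was closest to a library of HMW + cGAMP + CpGB (r = 0.529, own group 0.216), and replicate 1 of HMW + cGAMP + CpGB to one of HMW + SeV + CpGB (0.490, own group 0.140). None of the 9 is a Ctrl or single-ligand library. All 8 dendritic cell markers of GM-CSF cultures, among them Itgax and the class II genes, were detected, with summed group means of 7280 to 9764 CPM (counts scaled to the same library total) against 9624 in Ctrl. Neutrophil markers summed to 488 to 934 CPM (Ctrl 793), while markers of B cells, T cells, NK cells, mast cells with basophils and plasmacytoid dendritic cells reached at most 43.5 CPM in any library with medians of 0, and the 4 haemoglobin genes were at 0. In bulk samples fewer cells of a type and less RNA per cell cannot be told apart.

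The single ligands divided the members' responses. LPS, SeV and CpGB each raised all 8 genes above Ctrl and cGAMP raised 7, whereas PAM raised 3, HMW 1 and Zymosan 1, and none fell (edgeR quasi-likelihood test, adjusted p under 0.05 over 4720 genes). The share of all tested genes called higher was 17.1% for LPS, 12.2% for SeV, 12.5% for CpGB, 13.5% for cGAMP, 9.68% for PAM, 1.19% for HMW and 6.23% for Zymosan, and 6.84% of all gene tests over the 7 ligands were called lower. The median log2 fold change of the 8 members was 1.67 with LPS, 1.44 with SeV, 1.18 with cGAMP, 1.17 with CpGB, 0.41 with PAM, 0.31 with HMW and 0.29 with Zymosan, beside medians over all tested genes of −0.09 to 0.03. All 7 comparisons share the same 3 Ctrl libraries.

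**Figure D1:**
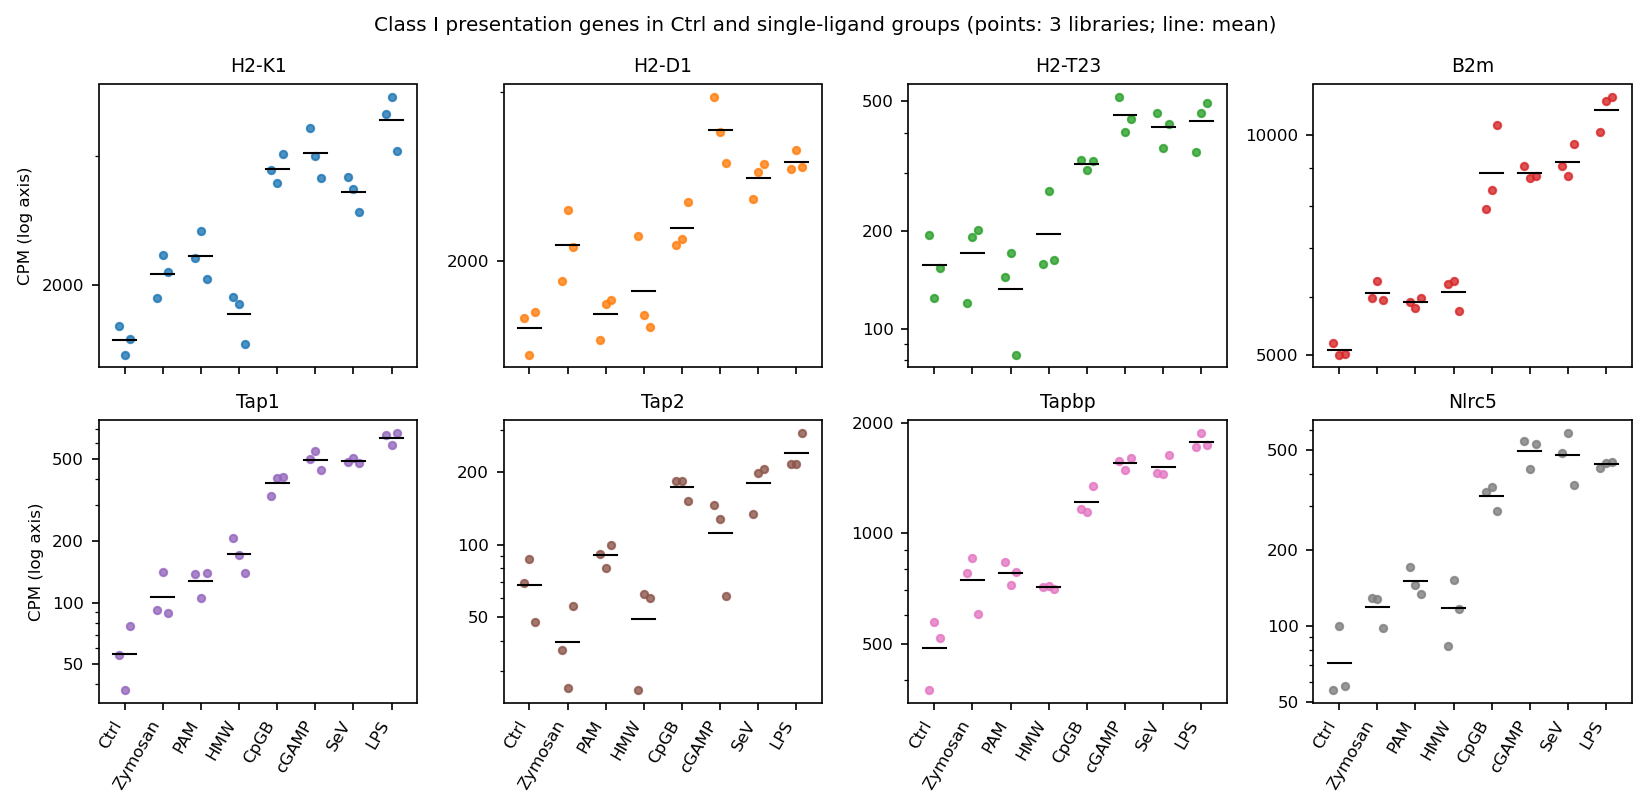
Levels of the 8 genes in CPM (log axis) in Ctrl and with each single ligand; points are the 3 libraries of a group and lines their mean. With LPS, SeV, cGAMP and CpGB all libraries lie above all Ctrl libraries for every gene except Tap2 with cGAMP.

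H2-K1 and H2-D1, the classical heavy chains of C57BL/6 mice, rose by less than 2-fold with every single ligand that raised them. H2-K1 stood at 1759, 1609 and 1690 CPM in the Ctrl libraries and at 3424, 3608 and 3052 CPM with LPS. The groups did not overlap, and the log2 fold change was 0.99 (SE 0.12, edgeR adjusted p = 1.46e-12). It was 0.84 with cGAMP, 0.78 with CpGB, 0.66 with SeV and 0.38 with PAM (edgeR adjusted p = 0.0195), while the values with Zymosan, 0.30, and HMW, 0.11, did not pass the test. Without the filter on low counts H2-K1 was called with Zymosan (0.48, adjusted p = 0.0287). The H2-K1 call with PAM was lost with other scaling factors (0.25, adjusted p = 0.166) and without replicate 2 of PAM (0.32, adjusted p = 0.109). H2-D1 had nearly the same Ctrl level, 1745, 1596 and 1767 CPM, and moved less. Its highest single-ligand group was cGAMP with 2962, 2723 and 2529 CPM, a log2 fold change of 0.68 (SE 0.12, edgeR adjusted p = 4.45e-07), ahead of LPS (0.57), SeV (0.52, and 0.43 with adjusted p = 0.051 after thinning all libraries to equal totals) and CpGB (0.35, adjusted p = 0.0195). With CpGB the 3 libraries, 2077, 2109 and 2306 CPM, lay above Ctrl, but the call was lost with RLE factors (0.25, adjusted p = 0.106) and without CpGB replicate 3 (0.30, adjusted p = 0.106). PAM gave H2-D1 1653, 1805 and 1822 CPM, which overlapped Ctrl (0.05), and the values with HMW, 0.12, and Zymosan, 0.29, did not pass the test, the latter being called without the filter (0.47, adjusted p = 0.038).

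H2-T23 encodes Qa-1, a nonclassical heavy chain recognised by NK cell receptors. Its Ctrl libraries held 194, 125 and 154 CPM. With cGAMP they held 514, 403 and 442 CPM, with LPS 350, 460 and 492 CPM, and with SeV 459, 360 and 427 CPM. These 3 groups lay above Ctrl without overlap, at log2 fold changes of 1.51, 1.49 and 1.41 (SE 0.25 each). CpGB gave 1.03 (SE 0.26, edgeR adjusted p = 0.000963), a call lost after thinning (0.86, adjusted p = 0.135). HMW (0.36), Zymosan (0.19) and PAM (−0.22) overlapped Ctrl, with H2-T23 at 83.3 to 171 CPM with PAM.

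B2m encodes beta-2-microglobulin, the light chain that all these heavy chains need. Its Ctrl libraries, 5194, 5001 and 5012 CPM, had the smallest spread relative to their mean among the members (mean 5069 ± 108 CPM, SD, n = 3). LPS gave 10109, 11145 and 11262 CPM, a log2 fold change of 1.10 (SE 0.11, edgeR adjusted p = 5.02e-18). SeV (0.86), CpGB (0.81) and cGAMP (0.81) also raised it. With HMW (0.27), Zymosan (0.26) and PAM (0.22) every library lay above every Ctrl library, between 5730 and 6303 CPM, but the differences did not pass the test across all genes (adjusted p of 0.130 to 0.368). Without the filter on low counts B2m was called with PAM (0.41, adjusted p = 0.019) and Zymosan (0.44, adjusted p = 0.0175).

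Tap1 had the largest log2 fold change of the 8 members with each of the 7 ligands in the fit to all libraries, called with 6 of them, from few Ctrl counts. Nlrc5 came ahead of it without Ctrl replicate 2 for PAM (1.38 and 0.89), Zymosan (1.02 and 0.65), SeV (3.06 and 2.88) and cGAMP (3.14 and 2.90). The CpGB values were then level (2.573 each). Nlrc5 also led without replicate 2 of all groups for PAM (1.446 and 1.065), Zymosan (0.98 and 0.44), SeV (2.92 and 2.89) and cGAMP (3.29 and 2.85). It led without PAM replicate 3 for PAM (1.15 and 1.03) and without Zymosan replicate 2 for Zymosan (0.63 and 0.62). After thinning it led for Zymosan (0.62 and −0.08). The Tap1 level was 55.4, 37.4 and 76.8 CPM in Ctrl and 655, 587 and 671 CPM with LPS. That is a log2 fold change of 3.43 (SE 0.27, edgeR adjusted p = 2.33e-26), and cGAMP (3.08), SeV (3.05) and CpGB (2.72) followed. Tap1 was the 1 member that HMW raised, to 208, 170 and 139 CPM (1.51, SE 0.34, adjusted p = 0.00387), and PAM raised it to 138, 106 and 139 CPM (1.10, SE 0.36, adjusted p = 0.0257). Both calls depended on single libraries: without Ctrl replicate 2 the adjusted p was 0.064 for HMW and 0.158 for PAM. After thinning the values were 0.90 (adjusted p = 0.809) and 0.49 (adjusted p = 0.724), and with RLE factors the PAM value was 0.97 (adjusted p = 0.0607). Zymosan gave 92.0, 141 and 88.6 CPM, above all Ctrl libraries but not past the test (0.86, adjusted p = 0.190).

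Tap2, the partner chain of the transporter, did not follow Tap1 in every group. LPS gave 216, 216 and 291 CPM against 69.3, 87.3 and 48.0 CPM in Ctrl (log2 fold change 1.87, SE 0.34, edgeR adjusted p = 9.44e-07), SeV 1.47 and CpGB 1.36. The SeV call was lost without replicate 3 of all groups (1.17, adjusted p = 0.0828). After thinning both were lost, at 0.81 for SeV (adjusted p = 0.336) and 0.26 for CpGB (adjusted p = 0.842), and LPS gave 1.21 (adjusted p = 0.0423). With cGAMP, Tap2 stood at 147, 129 and 61.4 CPM, which overlapped Ctrl (0.71, SE 0.40, adjusted p = 0.208), although Tap1 reached 504, 549 and 442 CPM in the same libraries. Whether the 2 genes' responses to cGAMP differ was not tested. PAM (0.44), HMW (−0.31) and Zymosan (−0.67) did not pass the test for Tap2, and all 3 groups overlapped Ctrl.

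Tapbp stood at 374, 574 and 518 CPM in Ctrl and at 1720, 1873 and 1736 CPM with LPS, a log2 fold change of 1.85 (SE 0.14, edgeR adjusted p = 2.76e-27). It rose by 1.65 with cGAMP, 1.63 with SeV, 1.31 with CpGB and 0.66 with PAM, the last lost after thinning (0.38, adjusted p = 0.367). It was also the 1 member called with Zymosan, at 782, 857 and 602 CPM (0.58, SE 0.15, adjusted p = 0.00533). That call was lost without Ctrl replicate 1 (0.46, adjusted p = 0.0821) and with DESeq2 (0.44, adjusted p = 0.0901). With HMW the 3 libraries, 715, 717 and 706 CPM, lay above Ctrl, and the value missed the threshold (0.53, adjusted p = 0.0512). It passed without the filter (0.69, adjusted p = 0.0266) and without Ctrl replicate 2 (0.67, adjusted p = 0.0231) or HMW replicate 1 (0.56, adjusted p = 0.0471) or 3 (0.57, adjusted p = 0.0415).

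Nlrc5, the transactivator, stood at 55.4, 99.8 and 57.6 CPM in Ctrl. It reached 541, 421 and 528 CPM with cGAMP (log2 fold change 2.80, SE 0.34, edgeR adjusted p = 7.12e-13), 487, 582 and 361 CPM with SeV (2.71) and 424, 443 and 447 CPM with LPS (2.63). These 3 groups overlap one another. CpGB gave 2.20 (SE 0.36). PAM gave 171, 146 and 133 CPM, above every Ctrl library, with a value just short of the threshold (1.08, SE 0.41, adjusted p = 0.0543). It passed without the filter (1.26, adjusted p = 0.0125), in a fit of PAM and Ctrl alone (1.03, adjusted p = 0.0197), without replicate 2 of all groups (1.45, adjusted p = 0.0276) and without Ctrl replicate 2 (1.38, adjusted p = 0.0453). HMW (0.80) and Zymosan (0.71) did not pass the test for Nlrc5 and overlapped Ctrl.

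In combinations the class I genes were raised nearly throughout. Against Ctrl, 431 of the 448 tests of 8 genes in 56 combinations were called higher and none lower, where 15.9% of all gene tests in pairs and 18.1% in triplets were called higher, and 11.2% and 13.2% lower. Without the 9 libraries apart the count was 432. H2-K1 and Tapbp were called in all 21 pairs and 35 triplets, B2m, Tap1 and Nlrc5 in 20 pairs and all triplets, H2-D1 in 19 and 34, H2-T23 in 17 and 34, and Tap2 in 17 and 33. The 17 exceptions fell in 6 combinations. PAM + Zymosan had 6 of them (B2m, H2-D1, H2-T23, Nlrc5, Tap1 and Tap2), PAM + CpGB 3 (H2-D1, H2-T23 and Tap2), PAM + HMW + CpGB the same 3, PAM + HMW and HMW + Zymosan 2 each (H2-T23 and Tap2) and PAM + Zymosan + CpGB 1 (Tap2).

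**Figure D2:**
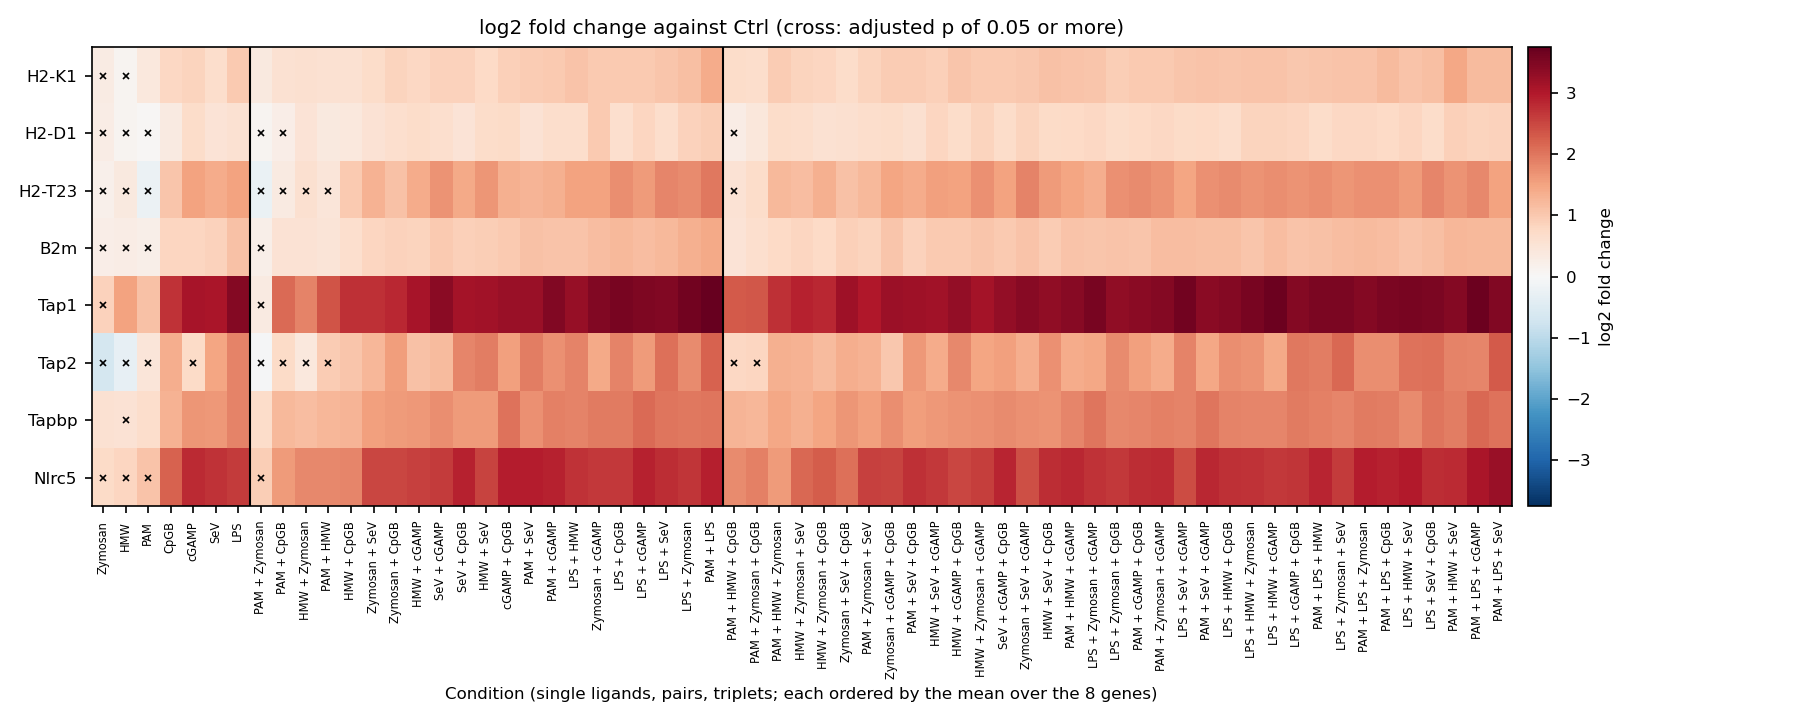
Log2 fold change against Ctrl of the 8 genes in the 63 ligand conditions, in rows by gene and columns by condition; a cross marks an adjusted p of 0.05 or above. Crosses lie in single PAM, HMW and Zymosan, at Tap2 in cGAMP, and in combinations made only of the first 3 or holding PAM with CpGB.

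The order of levels over the 64 groups had Ctrl lowest for 6 of the 8 genes. H2-T23 was lowest in PAM + Zymosan, at 126, 125 and 140 CPM (130 ± 8.14, SD, n = 3), and Tap2 in Zymosan, at 36.8, 25.6 and 56.0 CPM, and both groups overlapped others. Highest were PAM + LPS for Tap1 at 674, 865 and 776 CPM (772 ± 95.7), for B2m at 10706, 14569 and 15659 CPM (13645 ± 2602) and for H2-T23 at 419, 753 and 638 CPM (604 ± 170). The highest Tap1 mean was 13.7-fold that of Ctrl and the highest Nlrc5 mean, in PAM + LPS + SeV (668 ± 206 CPM), 9.41-fold. Tap2 was highest in PAM + LPS + SeV (329 ± 28.4 CPM), Tapbp in PAM + LPS + cGAMP (2180 ± 139 CPM) and H2-D1 in Zymosan + cGAMP (3367 ± 174 CPM). H2-K1 was highest in PAM + HMW + SeV, at 3398, 3638 and 6735 CPM, a mean set by the library that stands apart. Without the 9 libraries PAM + LPS was highest for H2-K1 (4848 CPM), H2-D1 (3437 CPM), H2-T23 (696 CPM), B2m (15114 CPM) and Tap1 (821 CPM), each a mean of 2 libraries. The neighbours of the highest group were not separated from it: the libraries of 7 (Tap2) to 48 (H2-T23) other groups overlapped those of the highest.

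A division made after the values were seen, into the 56 groups with at least 1 of LPS, SeV, cGAMP and CpGB and the 8 groups without, described the levels further. Tap1 group means ran from 56.5 to 392 CPM in the 8 groups and from 256 to 772 CPM in the 56, and 51 of the 56 lay above all 8. The count above all 8 was 53 for Nlrc5, 52 for B2m, 50 for Tapbp, 47 for H2-T23, 44 for Tap2, 35 for H2-K1 and 27 for H2-D1. The top of the 8 was PAM + HMW + Zymosan for every member but Nlrc5, and its replicate 1 stands apart. Without the 9 libraries the counts were 53 for Tap1 and Nlrc5, 55 for B2m, 51 for Tapbp and H2-T23, 46 for Tap2 and H2-D1 and 45 for H2-K1.

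The effect of each ligand over all its settings was estimated as the mean log2 difference between groups with and without it over 22 backgrounds (no other ligand, 6 singles and 15 pairs), in which Ctrl enters 1 of the 22 differences. Of 56 such values 43 were called higher and none lower. LPS, cGAMP and SeV raised all 8 genes, CpGB 7, PAM 6, HMW 4 and Zymosan 2, where 29.6%, 28.2%, 20.6%, 19.0%, 21.2%, 7.94% and 21.3% of all tested genes were called higher, and 19.2% of all gene tests lower. The count without the 9 libraries was also 43.

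LPS had the largest mean effect on every member except H2-D1, for which cGAMP and LPS both gave 0.29 (SE 0.02). LPS raised Tap1 by 1.09 (SE 0.04), Tap2 by 0.88 (SE 0.05), H2-T23 by 0.75, Nlrc5 by 0.72, Tapbp by 0.61, B2m by 0.46 and H2-K1 by 0.43 on the log2 scale. Tap1, Tap2 and H2-K1 were higher with LPS in 22 of 22 backgrounds. cGAMP raised Tap1 by 0.88, Nlrc5 by 0.65, H2-T23 by 0.58, Tapbp by 0.48, B2m by 0.29 and H2-K1 by 0.27, and Tap2 by 0.30 with higher values in 12 of 22 backgrounds. SeV raised Tap1 by 0.74, Tap2 by 0.63, Nlrc5 by 0.60, H2-T23 by 0.53, Tapbp by 0.32, B2m by 0.24, H2-K1 by 0.23 and H2-D1 by 0.18. The mean effect on Tap2 was thus 0.63 for SeV and 0.30 for cGAMP, while for Tap1 it was 0.74 and 0.88. These pairs of values were not tested against each other. CpGB gave 0.47 for Tap1, 0.35 for Tap2, 0.30 for Nlrc5, 0.24 for H2-T23, 0.20 for Tapbp, 0.15 for H2-K1 and 0.10 for B2m. The Tap2 call ended after thinning (0.20, adjusted p = 0.165) and the B2m call by library size alone (0.04, adjusted p = 0.091). H2-D1 did not pass the test with it (0.05, adjusted p = 0.0589), but was called when any 1 replicate of all groups was left out (0.07 to 0.09, adjusted p of 0.00836 to 0.0466).

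The other 3 ligands had small mean effects. Most of their backgrounds, a larger part than for LPS, SeV, cGAMP and CpGB themselves, held at least 1 of those ligands. With those the members were already raised, so the averages are not the effects of PAM, HMW or Zymosan alone, given above. HMW raised Tap1 by 0.28 (SE 0.04), H2-T23 by 0.17, H2-D1 by 0.10 and H2-K1 by 0.10, and its values for Tap2 (0.10), Nlrc5 (0.06), Tapbp (0.04) and B2m (0.02) were not called. The H2-T23 and H2-K1 calls ended without replicate 3 of all groups (adjusted p of 0.076 and 0.14) and after thinning to equal totals (0.131 and 0.0616). PAM raised Tap2 by 0.19, H2-K1 by 0.17, Nlrc5 by 0.15, Tap1 by 0.14, Tapbp by 0.10 and B2m by 0.07. The PAM calls depend on the scaling, which shifts all genes of a comparison alike. By library size alone the median PAM effect over all tested genes was −0.12, against 0.00066 with TMM, and none of the 6 rises stayed called. Under that shift H2-K1 was 0.05, Tap2 0.06, Nlrc5 0.02, Tap1 0.01 and Tapbp −0.02, and the negative values of B2m, H2-D1 and H2-T23 (−0.06, −0.09 and −0.15) passed the test. Relative to the median of all genes, B2m stood at 0.07 with TMM and 0.06 by library size, H2-D1 at 0.04 with both and H2-T23 at −0.03 with both. Without replicate 3 of all groups PAM raised 2 members. Zymosan raised H2-D1 by 0.14 (SE 0.02, 18 of 22 backgrounds) and H2-K1 by 0.08, the latter not called by library size alone (0.03, adjusted p = 0.194) or without replicate 3 of all groups (0.07, adjusted p = 0.0716). Its values for H2-T23 (0.08), Tapbp (0.05), B2m (0.04), Tap1 (0.04) and Nlrc5 (−0.02) were not called, but that of H2-T23 was without replicate 1 of all groups (0.15, adjusted p = 0.00706) and that of Tapbp without replicate 3 (0.09, adjusted p = 0.0317). By library size alone its Tap2 value, −0.09 and not called, became −0.14 (adjusted p = 0.0391), where the median over all genes was −0.08.

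**Figure D3:**
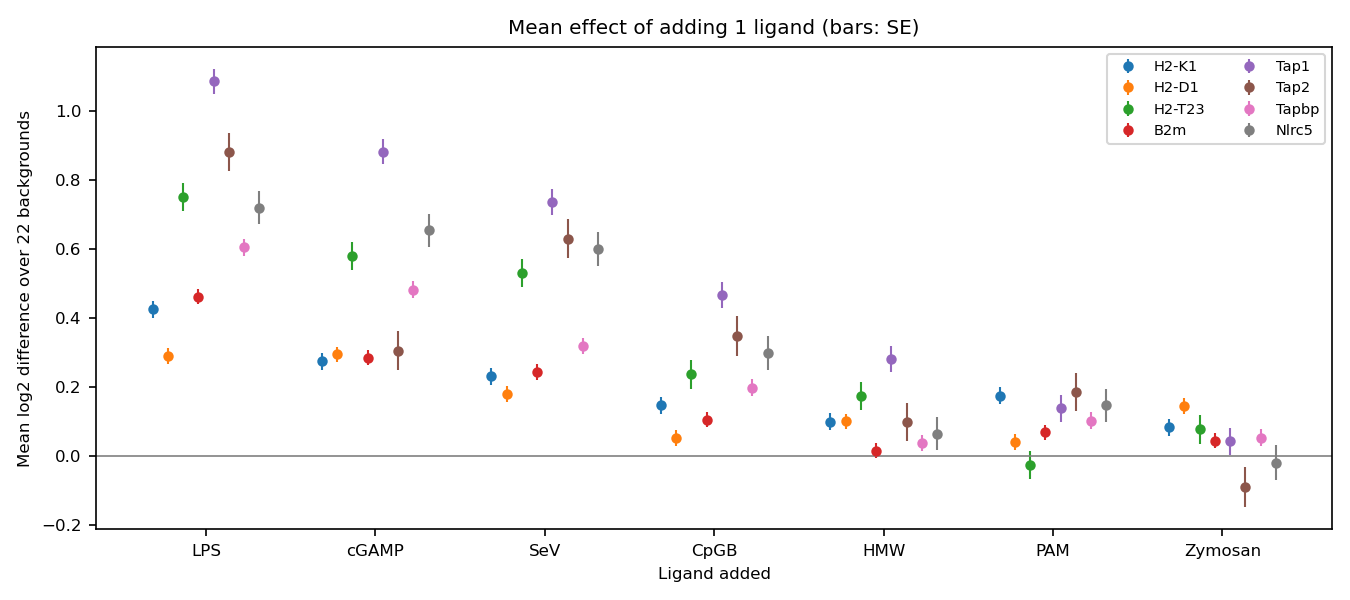
Mean log2 difference (points) and its SE (bars) of each gene between groups with and without a ligand over 22 backgrounds, by ligand. LPS reaches 1.09 for Tap1, and the values of PAM, HMW and Zymosan lie between −0.09 and 0.28.

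Each ligand was also followed as it was added to others. Pairs were compared with each of their singles (336 tests of the 8 genes, 123 called higher and none lower, where 6.80% and 3.82% of all gene tests were), and triplets with each of their pairs (840 tests, 153 higher and 1 lower, where 3.57% and 1.91% of all tests were). LPS added to 1 other ligand raised 34 of 48, cGAMP 28, SeV 23, CpGB 19, PAM 9, HMW 5 and Zymosan 5, against shares of all genes of 12.8%, 10.5%, 6.01%, 6.15%, 6.08%, 0.918% and 5.17%. Added to PAM, HMW or Zymosan, LPS raised 24 of 24 (17.9% of all genes), cGAMP 24 (16.3%), SeV 23 (11.5%) and CpGB 17 (7.85%). Added to another of these 4, LPS raised 10 of 24 (7.79% of all genes), cGAMP 4 (4.64%), CpGB 2 (4.46%) and SeV none (0.494%). In the 3 pairs of LPS with SeV, cGAMP or CpGB the members' log2 differences from LPS alone ran from −0.27 to 0.35.

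In triplets the counts were as follows. Added to 2 of PAM, HMW and Zymosan, LPS raised 24 of 24 values (12.5% of all genes), cGAMP 23 (14.5%), SeV 18 (8.99%) and CpGB 8 (3.11%). Where the pair already held another of the 4, LPS raised 26 of 96 (5.05%), cGAMP 18 (4.31%), SeV 16 (1.22%) and CpGB 2 (2.10%). The 1 lower call was Nlrc5 in Zymosan + SeV + CpGB, at 316, 309 and 270 CPM against 500, 632 and 456 CPM in SeV + CpGB (log2 difference −0.83, SE 0.23, adjusted p = 0.0136). These libraries did not overlap.

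The interaction of a pair, its log2 fold change minus the sum of those of its singles, was below 0 in 134 of 168 tests, with 49 called lower and none higher, where 3.50% and 1.08% of all gene tests were. It tests whether the effect of 1 ligand differs with the other present. A value below 0 means less than the product of the 2 fold changes, not a fall. For the 6 pairs among LPS, SeV, cGAMP and CpGB all 48 values lay below 0 and 39 were called lower (7.56% of all genes). The 15 other pairs had 86 of 120 below 0 and 10 called (1.88%). Tap1 had 12 called pairs, B2m, H2-K1, Nlrc5 and Tapbp 7 each, H2-T23 5, and H2-D1 and Tap2 2 each. All 21 pairs use the same 3 Ctrl libraries, in which Tap1, Tap2 and Nlrc5 have 18 counts or fewer, so their values share that error.

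**Figure D4:**
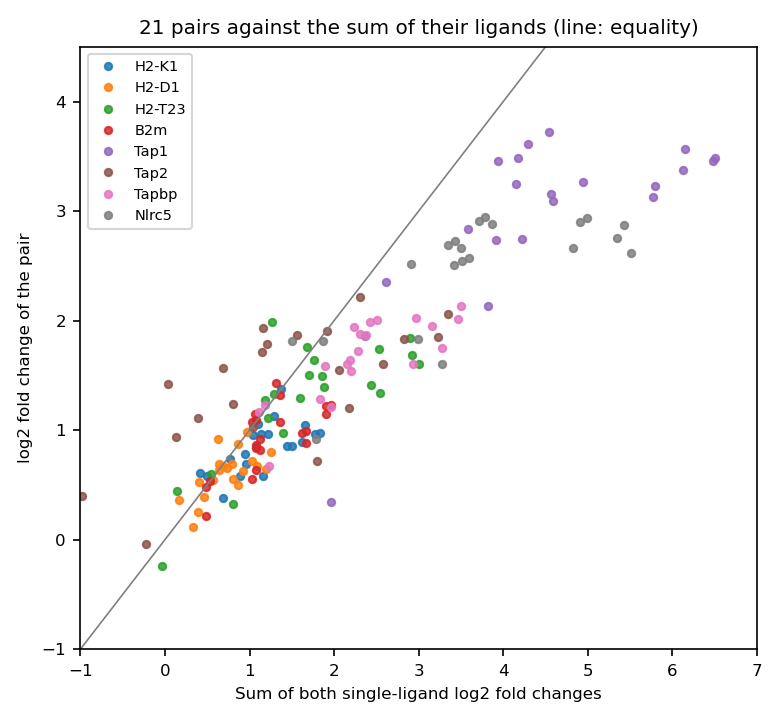
Log2 fold change of each pair against Ctrl (y axis) and the sum of the log2 fold changes of its 2 single ligands (x axis), for 8 genes and 21 pairs; the line marks equality. Pairs among LPS, SeV, cGAMP and CpGB lie below the line for all 8 genes.

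Tap1 with LPS + cGAMP stood at 639, 671 and 672 CPM, beside 655, 587 and 671 CPM with LPS alone and 504, 549 and 442 CPM with cGAMP alone. Its pair level thus overlapped that of LPS alone, and its interaction was −3.02 (SE 0.33, adjusted p = 3.93e-15). The largest called interaction of Nlrc5 was −2.90 (SE 0.41, adjusted p = 1.23e-09) and of Tapbp −1.53 (SE 0.18), both with SeV + cGAMP, where Nlrc5 stood at 447, 482 and 373 CPM, overlapping each ligand alone. H2-T23 had −1.41 and H2-K1 −0.86 with LPS + cGAMP, Tap2 −1.38 with LPS + CpGB, B2m −0.79 with SeV + CpGB and H2-D1 −0.56 with SeV + cGAMP. The H2-D1 value missed the threshold without replicate 2 (adjusted p = 0.06), and that of Tap2 without replicate 3 (adjusted p = 0.16). After thinning to equal totals the Tap2 value was −0.21 (adjusted p = 0.927).

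PAM with CpGB was the pair outside these 4 ligands with the most called interactions, 5 of 8 (6.82% of all genes): Nlrc5 −1.67, Tap1 −1.68, Tapbp −0.75, H2-K1 −0.58 and B2m −0.48. Its Tap1 level was 210, 311 and 248 CPM, where CpGB alone gave 330, 403 and 410 CPM and PAM alone 138, 106 and 139 CPM. For 7 of the 8 genes, all but Tapbp, every PAM + CpGB library lay below every CpGB library. How many of all tested genes were separated in this way was not counted. None of the 7 differences passed the test across all genes (Tap1 −0.58, adjusted p = 0.0916, and H2-T23 −0.71, adjusted p = 0.0788), where 1.27% of all genes were called lower. PAM + Zymosan gave Tap1 63.2, 95.8 and 64.9 CPM, overlapping Ctrl and below every PAM library, with an interaction of −1.62 (SE 0.47, adjusted p = 0.0328).

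**Figure D5:**
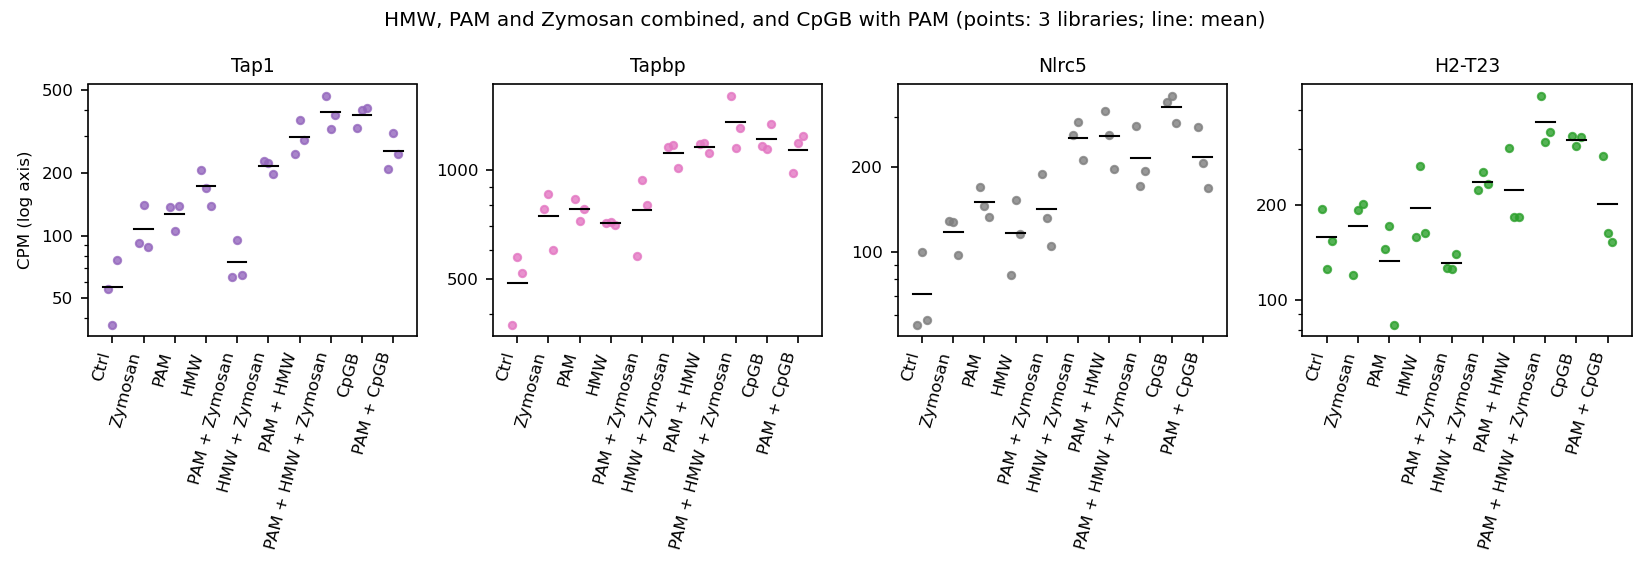
Levels in CPM of Tap1, Tapbp, Nlrc5 and H2-T23 in Ctrl, in PAM, HMW and Zymosan alone and combined, and in CpGB with and without PAM; points are libraries and lines means. Tap1 reads 246 to 358 CPM in PAM + HMW and 63.2 to 95.8 CPM in PAM + Zymosan.

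A pair exceeded both of its singles in 8 called cases, 0.805% being the share over all genes and pairs, and fell below both in none (0.0999%). They came from 4 pairs. PAM + HMW raised Tap1 to 246, 358 and 289 CPM, above all libraries of PAM and of HMW, by 0.85 over the higher single (adjusted p = 0.00153). It raised Tapbp to 1179, 1190 and 1117 CPM (0.58, adjusted p = 0.000354). HMW + Zymosan raised Nlrc5 to 261, 289 and 212 CPM (1.02, adjusted p = 0.0185) and Tapbp to 1157, 1174 and 1014 CPM (0.59, adjusted p = 0.00100). PAM + cGAMP brought Tap2 to 221, 164 and 273 CPM, above all libraries of cGAMP alone (1.01, adjusted p = 0.0108), and without replicate 3 the value was 0.46 and not called. The Tap1 call in PAM + HMW ended without replicate 2 (0.76, adjusted p = 0.109) or 3 (0.81, adjusted p = 0.116), and both HMW + Zymosan calls without replicate 3 (Tapbp 0.55, adjusted p = 0.357, and Nlrc5 1.15, adjusted p = 0.266). The Nlrc5 call also ended without replicate 1 (0.90, adjusted p = 0.33). By library size alone the calls of Nlrc5 (0.85, adjusted p = 0.17), of Tap1 in PAM + HMW (0.61, adjusted p = 0.102) and of Tap2 in PAM + cGAMP (0.73, adjusted p = 0.104) ended, and after thinning all 8 did.

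PAM + LPS exceeded LPS alone for H2-K1 by 0.39 (adjusted p = 0.0250), for H2-D1 by 0.35 (adjusted p = 0.0433) and for B2m by 0.34 (adjusted p = 0.0494). Its H2-K1 libraries held 3371, 4888 and 4807 CPM, of which the first, the library that stands apart, overlapped LPS. Without the 9 libraries the values rose to 0.53, 0.44 and 0.48, and H2-T23 joined them (0.64, adjusted p = 0.00181). With RLE factors (H2-K1 0.33, adjusted p = 0.0777) and with DESeq2 (0.33, adjusted p = 0.096) none of the 3 passed, nor by library size alone (H2-K1 0.20, adjusted p = 0.418) or without the filter (0.38, adjusted p = 0.2). Leaving out replicate 2 or 3 of all groups also ended the 3 calls, and leaving out replicate 1 ended those of H2-D1 (adjusted p = 0.109) and B2m (adjusted p = 0.127). Without the 9 libraries 14 cases were called in all. Among triplets, 1 member exceeded all 3 of its pairs (0.0297% of all gene tests): H2-K1 in PAM + HMW + SeV by 0.50 (adjusted p = 0.0140), and this value rests on the library that stands apart, being 0.10 and not called without the 9 libraries, and also not called after thinning (0.45). None was below all 3 pairs (0.00182%).

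Over the 64 group means of log2 CPM the members ran together, with Pearson's r from 0.746 (H2-D1 and Tap2) to 0.961 (Tap1 and Tapbp). These are descriptions, since the groups share ligands and all libraries were scaled together. The 3 genes most like Tap1 of all tested were Irf7 (r = 0.982), Ifi47 (0.980) and Trim30a (0.979). Those most like Nlrc5 were Mx1 (0.952), Nt5c3 (0.950) and Mx2 (0.948), and those most like Tapbp were Zbp1 (0.969), Gbp3 (0.963) and Isg15 (0.962). Irf7, Mx1, Mx2, Zbp1, Isg15, Gbp3 and Ifi47 are known interferon-induced genes. B2m was most like Tapbp (0.958), Ifi44 (0.957) and Ifi205 (0.954), and H2-K1 most like B2m (0.933), Gbp3 (0.929) and Ifi205 (0.924). H2-D1 was closest to Ifi205 (0.931), Tor1aip2 (0.925) and Clic4 (0.924), H2-T23 to Slfn1 (0.955), Npc2 (0.953) and Irf7 (0.950), and Tap2 to AW112010 (0.917), Slfn4 (0.907) and Ms4a4c (0.906).

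A list of 26 other genes of the class I route, its relatives and its regulators had 15 that passed the filter. The 11 that did not are H2-T22, H2-T24, H2-T10, H2-Q4, H2-Q6, H2-Q7, Mr1, Rfx5, Rfxap, Rfxank and Ciita. Of the 15, SeV and cGAMP raised 8, LPS and CpGB 7, PAM 3, and HMW and Zymosan 2, where 12.2% (SeV), 13.5% (cGAMP), 17.1% (LPS), 12.5% (CpGB), 9.68% (PAM), 1.19% (HMW) and 6.23% (Zymosan) of all tested genes were called higher. Their median log2 fold changes were 1.21, 1.32, 1.28, 1.16, 0.29, 0.52 and 0.23 in that order, beside the medians near 0 over all genes. LPS lowered 1, the chaperone gene Calr (489 to 329 CPM, −0.56, adjusted p = 0.0306), where 12.9% of all tested genes were called lower. Psme2, a proteasome activator subunit, was raised by all 7 ligands. Psme2 rose from 200 CPM in Ctrl to 1258 with LPS (2.65) and 979 with CpGB (2.29), and by 1.96 with PAM, 1.22 with Zymosan and 0.95 with HMW. The immunoproteasome gene Psmb8 was raised by 5 ligands, Psmb9, Psmb10 and the activator subunit Psme1 by 4, and Irf1, a transcription factor, by 3, with 2.56 for SeV and 2.55 for cGAMP. The chaperones Canx and Pdia3, the peptidase gene Erap1, Tapbpl and Cd1d1 were called with no ligand.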

How the data were processed

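Gene expression was measured by RNA-seq with unique molecular identifiers (UMIs) in 64 groups of 3 libraries. The deposited values are whole-number UMI counts per gene symbol. Per the submitters' processing notes, BWA 0.7.15 and build mm10 were used; annotation, UMI collapsing, treatment of multi-mapping reads and strandedness are not given in the sources used here. From these counts, 1 edgeR 4.0.16 model (R 4.3.3) with a coefficient per group was fitted to all libraries after filterByExpr (4720 genes, 95.7% of UMIs) and TMM scaling, with 128 residual degrees of freedom. Contrasts used the quasi-likelihood F-test with Benjamini-Hochberg adjustment over all tested genes within a contrast, and called means an adjusted p under 0.05. CPM values are TMM-scaled, log2 fold changes are from the fit, and SEs are the log2 fold change over the root of F. Intervals and tests cover UMI counting and library spread only.

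A member above both singles, or above all 3 pairs, needed every difference above 0 and the largest p past the threshold after adjustment. All 8 members were named in each single-ligand and mean-effect comparison; of combinations, the largest called value of each member; of alike genes, the 3 of highest r; of the pathway list, the 2 largest rises and the largest fall per ligand. Other combinations named (PAM + CpGB, PAM + Zymosan and the rest of the called interactions and pairs) were chosen after their values were seen. The largest rises of the pathway list are given only in part, and 1 of its genes, kept in its counts, is not reported here. Members and lists were chosen with earlier results of these data known. Alternatives were RLE factors, library size alone, DESeq2 1.42.0, no filter, thinning to 46564 counts a library, a replicate block, a log2 fold change of at least 1, a fit of 2 groups alone and leaving out replicates. Leaving out the 9 libraries apart was added after seeing the data; they were those whose best correlation with their own group (log2 of CPM plus 20, genes with mean CPM above 50, centred) was over 0.15 below that between the other 2 or with another group. The model was tested on simulated counts. Figures were drawn with matplotlib 3.10.9.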

Additional observations from a re-analysis of the deposited data

How the results depend on the processing

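Depth limits Tap1, Tap2, Nlrc5 and H2-T23 most, which have 15 to 40 counts in all Ctrl libraries, and PAM, HMW and Zymosan, whose single-ligand calls all ended after thinning. Over the 63 conditions the log2 fold changes of all tested genes had a median of −0.05 with TMM, −0.21 with RLE factors, −0.42 by library size alone and −0.22 with DESeq2. A scaling shifts all genes of a contrast alike, so values relative to that median are nearly fixed by construction. The cause of the changes below was not tested.

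Requiring a log2 fold change of at least 1 lowered the count of members called over single ligands from 36 to 22 (SeV 5, cGAMP 4, CpGB 5, PAM 1, Zymosan 0), of mean effects from 43 to 1 (LPS 1, 0 for each other ligand), of interactions from 49 to 31, of members above both singles from 8 to 2 and above all 3 pairs from 1 to 0. PAM had 1 call with RLE factors, by library size and with DESeq2, 5 without a filter and 0 after thinning; HMW 2 without a filter and 0 after thinning; Zymosan 0 with DESeq2, 4 without a filter and 0 after thinning; CpGB 5 and SeV 6 after thinning. Mean-effect calls of PAM were 6, all rises, 3 by library size, all below 0 (B2m, H2-D1 and H2-T23, where the median of all genes was −0.12), and 1 after thinning, those of HMW 2 after thinning. Interactions numbered 32 after thinning. Members above both singles numbered 5 with RLE factors, 2 by library size, 5 with DESeq2, 0 after thinning and 14 without the 9 libraries, and above all 3 pairs 0 after thinning and 0 without the 9. Leaving out 1 replicate gave 33 to 35 single-ligand calls (PAM 2 to 2, HMW 0 to 2, Zymosan 0 to 1, SeV 7 to 8, cGAMP 7 to 7, CpGB 7 to 8, LPS 8 to 8), 414 to 430 in combinations, 38 to 44 mean effects (PAM 2 to 6, HMW 2 to 4, Zymosan 2 to 3), 40 to 44 interactions, 29 to 39 in the pathway list, 1 to 5 above both singles and 0 to 3 above all 3 pairs.

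Replicate numbers were shared by all groups, and the main fit did not use them. Deviations of same-numbered libraries in other groups correlated weakly, at r = 0.0176 on average (−0.450 to 0.269), against −0.00878 for different numbers. Most libraries, 163, nonetheless correlated best on average with their own number, so a weak component shared by number was present. What the numbers stand for was not tested. With the replicate block the counts were 38 over single ligands (HMW 2, PAM 4), 432 in combinations, 44 mean effects, 49 interactions, 11 above both singles, 1 above all 3 pairs and 38 in the pathway list. The block added calls for Nlrc5 with PAM (1.06, adjusted p = 0.0224), Tapbp with HMW (0.53, adjusted p = 0.0413) and the mean effect of CpGB on H2-D1 (0.05, adjusted p = 0.0493).

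The following signs turned. Among single ligands, H2-D1 with PAM became −0.0879 with RLE factors, −0.138 by library size, −0.0877 with DESeq2 and −0.196 after thinning; H2-T23 with PAM 0.0619 after thinning, 0.0401 without replicate 3 and 0.0271 without PAM replicate 3 (range over replicates left out −0.56 to 0.04); H2-T23 with HMW −0.0447 without replicate 2 (−0.04 to 0.64); and after thinning Nlrc5 with HMW −0.222 (from 0.80), H2-T23 with Zymosan −0.0817 and Tap1 with Zymosan −0.0801 (from 0.86). Among mean effects, by library size H2-D1 with PAM became −0.0867, B2m with PAM −0.0597, Tapbp with PAM −0.0244, B2m with HMW −0.00879, B2m with Zymosan −0.0039, Tap1 with Zymosan −0.00601 and H2-D1 with CpGB −0.0111. After thinning H2-D1 with PAM was −0.0193, H2-T23 with PAM 0.0411, Tap2 with HMW −0.0430, H2-T23 with Zymosan −0.0355, Tap1 with Zymosan −0.00109 and Nlrc5 with Zymosan 0.0151. H2-T23 with PAM was 0.00176 without a filter, B2m with HMW −0.00079 without replicate 1 and −0.0189 without the 9 libraries, and Nlrc5 with Zymosan 0.00881 without replicate 3 (−0.0361 to 0.00881). Of these only B2m and Tapbp with PAM were called before.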
